A study of Drosophila melanogaster with 6 samples.

Results

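H3K27ac and H3K9acS10ph are 2 acetylated forms of histone H3 whose positions were recorded by ChIP-seq, the sequencing of immunoprecipitated chromatin, in Kc167 cells of Drosophila melanogaster. Kc167 is an established line that comes from embryos and is female. They make up 2 of the 6 samples of the series. The other samples were precipitated with antibodies to JIL-1, H3K27acS28ph, H3K4me3 and H3K4me1, with 1 library per antibody and no treatment, mutant or replicate in any of them. The members are the called peaks of both lists on the main arms 2L, 2R, 3L, 3R and X and on chromosome 4, which are 5222 of 5303 H3K27ac peaks and 6873 of 6918 H3K9acS10ph peaks, together 12095 of the 46554 arm peaks of the series. Peaks of the pair of lists that overlapped by at least 1 bp were joined into regions. This gave 3700 shared regions, 1077 H3K27ac only regions and 2068 H3K9acS10ph only regions, where an "only" region is always a single peak.

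Acetylation of H3K27 is placed by the CBP family of acetyltransferases and is known from active promoters and active enhancers. In H3K9acS10ph the acetylated lysine sits next to a phosphorylated serine, a residue that the kinase JIL-1 phosphorylates in interphase chromatin of the fly. H3K4me3 is a mark of active promoters, and H3K4me1 marks enhancers and sequence flanking promoters. Without replicates there is no measure of the variation between chromatin preparations, and no statistical test was made. Intervals are 95% Wilson intervals for a share and 95% Newcombe intervals for a difference of shares. They cover counting error only and treat peaks as independent, which neighbouring peaks are not. Read depth behind the lists is unknown. More reads or a stronger antibody give more and wider peaks, so a peak called in one list and not in the other does not show that the other mark was absent.

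The H3K27ac list was the shorter of the pair and the more fully shared. Of its 5222 peaks 79.4% (78.3 to 80.5) overlapped an H3K9acS10ph peak, against 69.9% (68.8 to 71.0) of the 6873 H3K9acS10ph peaks that overlapped H3K27ac. In bases, the lists covered 15.4% of the 120 Mb counted for the arms with H3K27ac and 16.4% with H3K9acS10ph. Of the H3K27ac bases 70.3% were also in H3K9acS10ph, and of the H3K9acS10ph bases 66.2% were also in H3K27ac. Which list was more fully shared depended on the peaks kept and on the arm. With H3K9acS10ph cut to the 5222 arm peaks of highest score, 74.0% of H3K27ac peaks and 82.2% of H3K9acS10ph peaks were shared. This cut changed both length and scores, and their parts were not told apart. Without a cut, the H3K9acS10ph list was also the more fully shared on 2L (73.3% against 71.0%) and on chromosome 4 (100% against 43.8%). On 2R, 3L, 3R and X it was not.

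Most shared regions were simple pairs. Of the 3700, 2715 (73.4%) held 1 H3K27ac peak and 1 H3K9acS10ph peak. One H3K27ac peak met 2 or more H3K9acS10ph peaks in 607 regions (16.4%), 2 or more H3K27ac peaks met 1 H3K9acS10ph peak in 180 (4.86%), and 198 regions (5.35%) held 2 or more of each. A single H3K27ac peak spanning several H3K9acS10ph peaks was thus the more frequent of the uneven arrangements. The most peaks found in 1 region were 5 for H3K27ac and 7 for H3K9acS10ph.

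Few pairs sat at the edge of the overlap rule. Of 5250 overlapping pairs, 13 overlapped by at most 10 bp and 84 by at most 100 bp. The smallest overlap was 2 bp, for example between the H3K27ac peak at 3L:7312847-7314380 and the H3K9acS10ph peak at 3L:7314379-7317500, and the same overlap was found at 3L:11190990-11208638 and at X:17055847-17056918 (coordinates of the H3K27ac peaks). Just outside the rule, the unshared peaks of both lists lying closest together were 5 bp apart at 3L:13271417-13273719, 23 bp apart at X:7949542-7960362 and 32 bp apart at 2R:1820132-1822281 (coordinates of the H3K27ac peaks). Coordinates count from 1 and include both ends. The scaffolds carry the names used in release 5 of the fly genome. Most unshared peaks were not near misses. The median gap to the nearest peak of the other list was 3507 bp for H3K27ac only peaks (quartiles 1101 and 9272 bp) and 6418 bp for H3K9acS10ph only peaks (2040 and 18020 bp), and 14.2% and 7.69% of them lay within 500 bp.

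Shared and unshared regions differed in the H3K4 methylation they carried, and so did the 2 kinds of unshared region. Of the shared regions 86.5% (85.4 to 87.6) overlapped H3K4me3, 13.2% (12.2 to 14.4) overlapped H3K4me1 without H3K4me3, and 9 of 3700 (0.243%) overlapped neither. Of the H3K27ac only regions 29.8% (27.1 to 32.6) overlapped H3K4me3, 55.2% (52.2 to 58.1) H3K4me1 without H3K4me3 and 15.0% (13.0 to 17.3) neither. Of the H3K9acS10ph only regions 55.2% (53.1 to 57.4) overlapped H3K4me3, 20.4% (18.7 to 22.2) H3K4me1 without H3K4me3 and 24.4% (22.6 to 26.3) neither. With the full lists of deposited peaks, H3K27ac alone therefore lay mostly where the enhancer mark was called without the promoter mark. H3K9acS10ph alone lay mostly at the promoter mark or outside both.

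**Figure D1:**
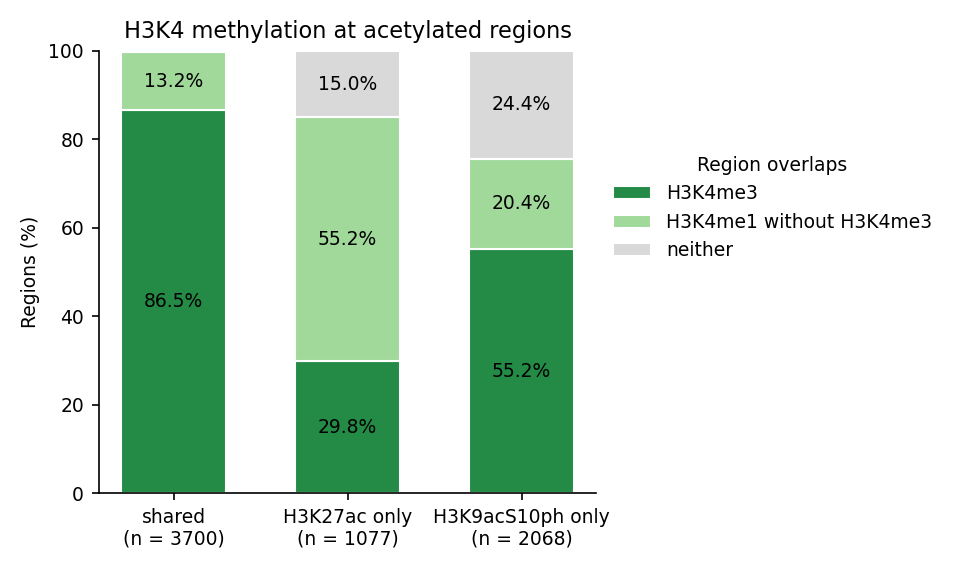
Share of regions (%, y axis) that overlapped H3K4me3, H3K4me1 without H3K4me3 or neither, for the 3 groups of acetylated regions (x axis, number of regions below each bar). H3K4me1 without H3K4me3 is the largest part of the H3K27ac only bar (55.2%), and H3K4me3 is the largest part of the shared (86.5%) and H3K9acS10ph only (55.2%) bars.

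The share at H3K4me1 without H3K4me3 was 34.7 percentage points higher in H3K27ac only than in H3K9acS10ph only regions (31.3 to 38.1), and the share at H3K4me3 was 25.4 points lower (difference -25.4, -28.8 to -21.9). Sizes depended on peak extent and threshold. With 1000 bp around each midpoint in place of the deposited peaks, 32.5% of H3K27ac only and 13.1% of H3K9acS10ph only regions were at H3K4me1 without H3K4me3, and with each list reduced to its upper 50% of scores 47.9% and 75.7% were at H3K4me3. In neither of these settings was H3K4me1 without H3K4me3 still the larger share within H3K27ac only regions. H3K4me3 was at 35.1% of them in the 1000 bp windows. With the upper 50% of scores, H3K4me1 without H3K4me3 was at 44.1% of them. The H3K27ac list held 58.2% of its peaks at or above a score of 3100, and ties were broken by width. Its upper 50% thus kept the widest of the tied peaks and was in part a cut by width. The order of the 3 groups in both shares was the same in all 7 other settings tried with these lists.

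Counted from the other side, 4664 acetylated regions overlapped H3K4me3, of which 68.6% (67.3 to 69.9) carried both acetylated forms, 6.88% (6.19 to 7.65) H3K27ac alone and 24.5% (23.3 to 25.7) H3K9acS10ph alone. The 1506 regions at H3K4me1 without H3K4me3 were divided more evenly, with 32.5% (30.2 to 34.9) carrying both, 39.4% (37.0 to 41.9) H3K27ac alone and 422 regions (25.8 to 30.3%) H3K9acS10ph alone. Of the 675 regions with neither methylation, 1.33% carried both, 24.0% H3K27ac alone and 74.7% (71.3 to 77.8) H3K9acS10ph alone. Only 9 whole regions that met neither H3K4 mark had the pair of acetylated forms called together. Parts of other shared regions can still lie outside both marks.

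The other lists can be sorted the same way. Of the 9412 H3K4me3 arm peaks 56.0% overlapped both acetylated lists, 6.56% H3K27ac alone, 16.6% H3K9acS10ph alone and 20.9% neither. H3K4me3 peaks over both lists stood at a median score percentile of 71.1 within their own list, those over H3K27ac alone at 50.5, those over H3K9acS10ph alone at 32.7 and those over neither at 19.9. Of the 9529 H3K4me1 peaks 62.1% overlapped both, 8.84% H3K27ac alone, 6.63% H3K9acS10ph alone and 22.4% neither. Of the 3223 H3K27acS28ph arm peaks 77.9% overlapped both.

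The pattern of combinations made the groups plainer. Among shared regions the most frequent combination of other lists was all 4 of them (1677 regions, 45.3%), followed by H3K4me3, H3K4me1 and JIL-1 without H3K27acS28ph (1263, 34.1%). Among H3K27ac only regions it was H3K4me1 with no further list (311, 28.9%) and H3K4me1 with JIL-1 (274, 25.4%). Among H3K9acS10ph only regions it was H3K4me3 with no further list (377, 18.2%), and the next was no other list at all (331, 16.0%), against 89 H3K27ac only regions (8.26%) and 1 shared region with no other list.

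Unshared peaks were narrower than shared peaks in both lists. The median width was 2869 bp for shared H3K27ac peaks (quartiles 1900 and 4577 bp) and 1539 bp for H3K27ac only peaks (1134 and 2233 bp). It was 2647 bp for shared H3K9acS10ph peaks (1806 and 3964 bp) and 1684 bp for H3K9acS10ph only peaks (1358 and 2174 bp). A wide peak meets another list more readily, and the share of shared peaks rose with width. Of H3K27ac peaks under 1000 bp 32.3% were shared, and of those of 5000 bp and over 93.4%. Of H3K9acS10ph peaks of 1000 to under 1500 bp 46.9% were shared, and of those of 5000 bp and over 94.2%.

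**Figure D2:**
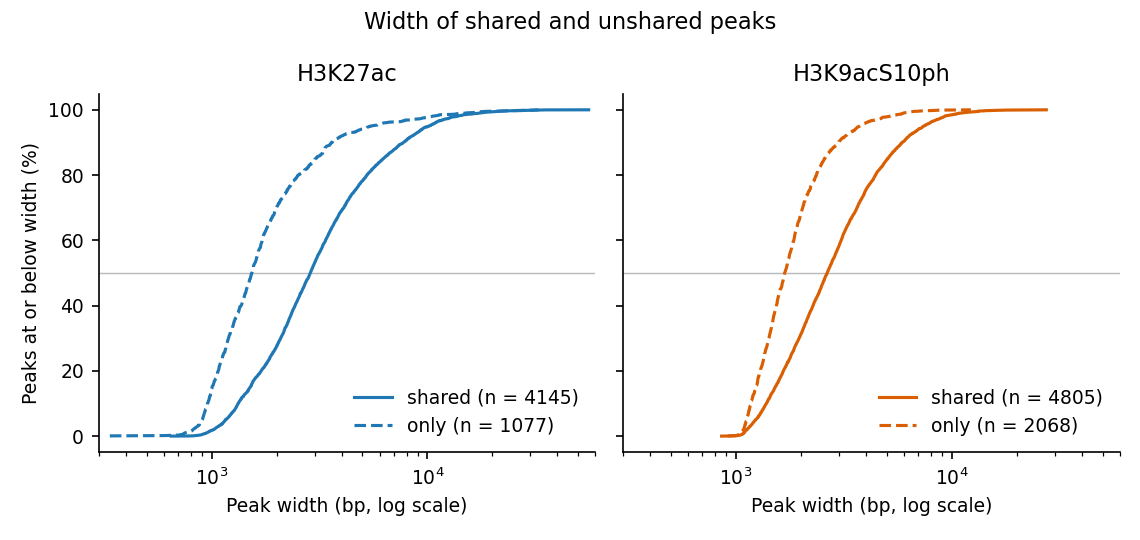
Cumulative share of peaks (%, y axis) by peak width (bp, log scale, x axis) for H3K27ac (left) and H3K9acS10ph (right), with shared peaks as solid and unshared peaks as dashed lines; the grey line marks the median. In both lists the dashed line lies to the left, with medians of 1539 bp (H3K27ac only) and 1684 bp (H3K9acS10ph only) against 2869 and 2647 bp for shared peaks.

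H3K27ac held the widest unshared peaks. There were 64 H3K27ac only peaks of 5000 bp and over and 45 such H3K9acS10ph only peaks, and H3K4me3 was found at 85.9% (75.4 to 92.4) and 91.1% (79.3 to 96.5) of them. Broad unshared peaks of both lists were thus mostly at the promoter mark, unlike the narrow H3K27ac only peaks, of which 22.9% of those under 1500 bp overlapped H3K4me3. A wide peak meets H3K4me3 more readily as well, and the part of width in this contrast was not tested. The widest H3K27ac only peaks lay at 3L:20366825-20399522 (32.7 kb, over 10 H3K4me3 and 10 JIL-1 peaks), at 3L:627636-658517 (30.9 kb, over 2 H3K4me3 peaks and no JIL-1 peak) and at X:10654958-10681923 (over 3 H3K4me3 and 5 JIL-1 peaks). The widest H3K9acS10ph only peaks were shorter. They lay at 2L:984502-996766 (12.3 kb, over 3 H3K4me3 peaks and 1 JIL-1 peak), at 2R:18104749-18115349 (10.6 kb, over 3 H3K4me3 and 3 JIL-1 peaks) and at X:18182415-18191253 (8.84 kb, over 1 H3K4me1 and 1 JIL-1 peak and no H3K4me3 peak).

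Of the 3 widest shared regions, 2 were chains of peaks of both lists and 1 was a single pair. The region at 3L:3393479-3467931 (74.5 kb) held 3 H3K27ac and 3 H3K9acS10ph peaks, and its H3K9acS10ph peaks ended at 3421965 while 1 H3K27ac peak of 55816 bp ran on to the end of the region. The region at 3L:4094346-4140883 (46.5 kb) held 4 H3K27ac and 6 H3K9acS10ph peaks with 15 H3K4me3, 13 JIL-1 and 10 H3K27acS28ph peaks. In the region at X:12551905-12587654 (35.8 kb) a single H3K27ac peak of 31222 bp met a single H3K9acS10ph peak of 7193 bp at one end.

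Scores were used only as ranks within a list, since no file defines the score. Shared peaks ranked higher in both lists. The median percentile was 70.6 for shared H3K27ac peaks, which is the rank at which 57.4% of that list is tied at a score of 3100, and 18.1 for H3K27ac only peaks. It was 64.6 for shared H3K9acS10ph peaks and 21.5 for H3K9acS10ph only peaks. Sharing of H3K9acS10ph climbed from 27.5% (24.3 to 31.0) in the lowest 10% of scores to 99.9% (99.2 to 100) in the highest, where 1 of 687 peaks was unshared. Sharing of H3K27ac climbed from 38.9% (34.8 to 43.1) in its lowest 10% of scores to 94.0% (93.1 to 94.8) in the 3037 peaks at or above 3100, so that 181 H3K27ac peaks in the tied top of their list had no H3K9acS10ph peak. Width and score moved together, with a Spearman correlation of 0.73 over the 5222 H3K27ac peaks and 0.72 over the 6873 H3K9acS10ph peaks. Their parts in sharing were not told apart.

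**Figure D3:**
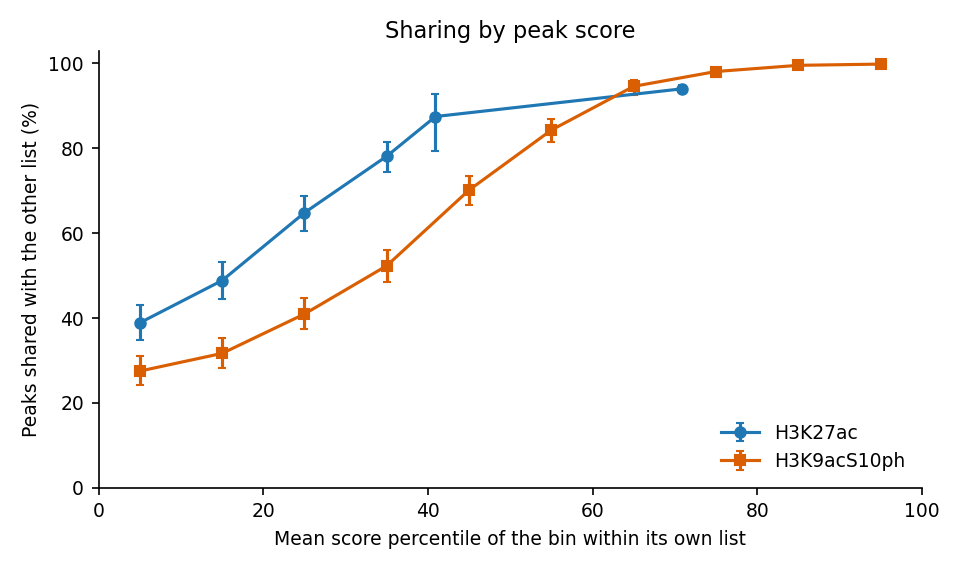
Share of peaks overlapping the other list (%, y axis, with 95% Wilson intervals) by the mean score percentile of the bin within its own list (x axis), in bins of 10% of the list; the H3K27ac scores at or above 3100 form 1 bin. H3K9acS10ph runs from 27.5% to 99.9%, and H3K27ac from 38.9% to 94.0%.

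At like score, the H3K4me3 shares of shared and unshared peaks stood far apart in the H3K27ac list and close together in the H3K9acS10ph list. Among H3K9acS10ph peaks H3K4me3 was found at 46.1% of 538 and 46.8% of 1180 in the lowest 25% of scores (difference -0.683 points, -5.74 to 4.40), 64.8% of 992 and 61.6% of 726 in the next (3.25, -1.35 to 7.87), and 88.8% of 1565 and 87.7% of 154 in the one above (1.09, -3.51 to 7.39). Among H3K27ac peaks H3K4me3 was found at 57.5% of 624 shared and 20.1% of 681 unshared peaks in the lowest 25% of scores (37.4 points, 32.4 to 42.2), at 81.5% of 665 and 37.2% of 215 in the rest below 3100 (44.3, 37.0 to 51.1), and at 91.2% of 2856 and 57.5% of 181 at or above 3100 (33.8, 26.7 to 41.1). In their lowest 25% of scores, shared H3K9acS10ph peaks differed from unshared ones in another respect, with 51.7% against 20.9% at H3K4me1 without H3K4me3 and 2.23% against 32.3% at neither. The closeness in the H3K9acS10ph list was seen at like score and not at like width. At 1500 to under 2000 bp H3K4me3 was found at 77.8% of 522 shared and at 64 of 237 unshared H3K27ac peaks (50.8 points, 43.7 to 57.0), and at 74.5% of shared and 50.5% of unshared H3K9acS10ph peaks (24.0 points, 19.1 to 28.9). In the H3K9acS10ph list the difference was 16.1 points (11.0 to 21.1) at 1000 to under 1500 bp, 20.5 points (15.6 to 25.4) at 2000 to under 3000 bp, 11.8 points (5.74 to 19.0) at 3000 to under 5000 bp and 3.17 points (-2.54 to 15.1) at 5000 bp and over.

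The 3 highest-scoring H3K27ac only peaks lay at 2L:10245570-10247380 and 3R:9227979-9229419, both over H3K4me3, H3K4me1 and JIL-1, and at 2L:2907491-2909490, over H3K4me1 alone. The 3 highest-scoring H3K9acS10ph only peaks, at 3R:19167143-19172428, 2R:20230833-20232514 and 3R:10257153-10259991, each lay over H3K4me3, H3K4me1 and JIL-1. The first of them stood at percentile 90.9 of its list. The shared regions with the highest H3K9acS10ph scores, at 3R:6086479-6091414, 2R:10156161-10159958 and 2L:17409478-17412610, carried all 4 other lists, and their best H3K27ac peaks were at the tied score of 3100.

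Where both forms were called, their midpoints lay close together. In the 2715 pairs of 1 H3K27ac and 1 H3K9acS10ph peak the midpoints lay a median of 288 bp apart (quartiles 117 and 605 bp), which is 19.0% of the way from the centre of the wider peak to its edge. The midpoints were within 500 bp in 68.5% of these pairs (66.7 to 70.2) and within 1000 bp in 89.6% (88.4 to 90.7). Over all 5250 overlapping pairs, which include chains, the median was 699 bp. Widths were alike too, with medians of 2549 bp for H3K27ac and 2578 bp for H3K9acS10ph in the 1 to 1 pairs and a median ratio of 0.962. The H3K9acS10ph peak lay inside the H3K27ac peak in 22.6% of the pairs, the H3K27ac peak lay inside the H3K9acS10ph peak in 32.3%, and in 45.1% they were staggered.

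H3K9acS10ph was the form centred more closely on H3K4me3. In the 1509 of these pairs in which both peaks overlapped the same single H3K4me3 peak, the midpoint of H3K27ac lay a median of 248 bp from that of H3K4me3 (quartiles 93 and 509 bp), and the midpoint of H3K9acS10ph 110 bp (38 and 335 bp). H3K27ac had the nearer midpoint in 34.0% of them (31.6 to 36.4). Peak widths there were a median of 2259 bp for H3K27ac, 2295 bp for H3K9acS10ph and 1598 bp for H3K4me3. No such difference was seen towards JIL-1, where the H3K27ac midpoint was nearer in 48.5% of 1422 pairs (45.9 to 51.1) with medians of 352 bp for H3K27ac and 358 bp for H3K9acS10ph, or towards H3K27acS28ph, where it was nearer in 49.7% of 939 pairs (46.5 to 52.9).

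**Figure D4:**
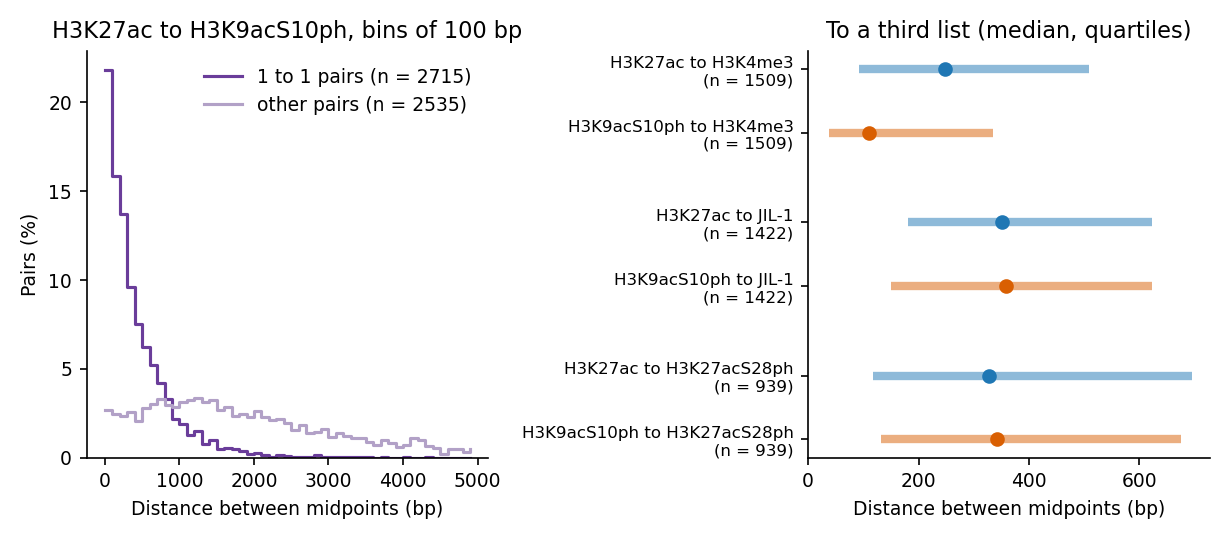
Left, distance between the midpoints of overlapping H3K27ac and H3K9acS10ph peaks (bp, x axis, up to 5000 bp) as share of pairs (%, y axis, bins of 100 bp), for 1 to 1 pairs and for pairs in chains. Right, distance from the midpoint of either peak of a 1 to 1 pair to the midpoint of a peak of another list that both overlap (bp, x axis; points are medians, bars run between the quartiles); the H3K9acS10ph median to H3K4me3 (110 bp) is the lowest of the 6, against 248 bp for H3K27ac.

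The distance between the pair was similar at both kinds of site. It was a median of 279 bp in 2278 pairs at H3K4me3 and 346 bp in 428 pairs at H3K4me1 without H3K4me3. Ranks differed more. The H3K9acS10ph peak of the pair stood at a median percentile of 69.4 at H3K4me3 and 36.0 at H3K4me1 without H3K4me3, and the H3K27ac peak at 70.6 and 31.5. H3K27ac was the wider peak in 43.2% of pairs at H3K4me3 (41.2 to 45.3) and in 50.2% of pairs at H3K4me1 without H3K4me3 (45.5 to 54.9). Across the 1 to 1 pairs the score percentiles of both forms had a Spearman correlation of 0.54, and 0.35 in the 947 pairs with H3K27ac below the tied score of 3100. The points are peaks of the same pair of libraries.

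Base by base, the parts of the peaks outside the other list differed in the same way as the regions did. Bases in both lists made up 13.0 Mb, of which 65.4% were in H3K4me3 and 32.0% in H3K4me1 without H3K4me3. Within shared regions, the 3.09 Mb of H3K27ac outside H3K9acS10ph were in H3K4me3 for 13.5% and in H3K4me1 without H3K4me3 for 71.3%, whereas the 2.62 Mb of H3K9acS10ph outside H3K27ac were in H3K4me3 for 43.8% and in H3K4me1 without H3K4me3 for 42.7%. Over the whole arms 12.4% of bases were in H3K4me3 and 14.6% in H3K4me1 without H3K4me3. In unshared regions, 26.7% of the bases of H3K27ac only and 38.6% of those of H3K9acS10ph only regions were in H3K4me3. The H3K27ac bases outside H3K9acS10ph thus had the smaller share of promoter-marked sequence, in shared as well as in unshared regions.

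JIL-1, the interphase H3S10 kinase, was found at most shared regions and at a smaller share of unshared regions of either kind. It overlapped 90.3% (89.3 to 91.2) of shared, 54.1% (51.1 to 57.1) of H3K27ac only and 44.7% (42.6 to 46.9) of H3K9acS10ph only regions. JIL-1 peaks covered 13.8% of the arm bases, which is a share of bases and no reference for a share of regions. In bases, JIL-1 covered 61.7% of those in both lists. It covered 36.1% of the bases of H3K27ac only and 25.1% of those of H3K9acS10ph only regions. Counted by regions, shared exceeded H3K27ac only regions by 36.2 points (33.0 to 39.3) and H3K9acS10ph only regions by 45.6 points (43.2 to 47.9). H3K27ac only exceeded H3K9acS10ph only regions by 9.40 points (5.72 to 13.0), but this last difference depended on the setting, with 51.2% and 50.9% when every peak was 1000 bp wide and 64.4% and 65.1% with each list reduced to its upper 50% of scores. In that last setting the order of the 2 unshared groups was turned round. It also kept the wider of the H3K27ac peaks tied at 3100, and the part of width was not tested.

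The JIL-1 share was higher in shared regions within every H3K4 methylation class. At H3K4me3, JIL-1 was found at 93.7% of 3201 shared, 75.7% (70.7 to 80.1) of 321 H3K27ac only and 51.8% (48.9 to 54.7) of 1142 H3K9acS10ph only regions. At H3K4me1 without H3K4me3 it was found at 68.6% (64.3 to 72.5) of 490 shared, 47.0% (43.0 to 51.0) of 594 H3K27ac only and 42.9% (38.3 to 47.7) of 422 H3K9acS10ph only regions. Outside both marks it was found at 7 of 9 shared, 37.7% of 162 H3K27ac only and 30.2% of 504 H3K9acS10ph only regions. The difference between the 2 unshared groups was 23.9 points at H3K4me3 (18.1 to 29.1), 4.08 points at H3K4me1 without H3K4me3 (-2.13 to 10.2) and 7.50 points outside both (-0.720 to 16.1).

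**Figure D5:**
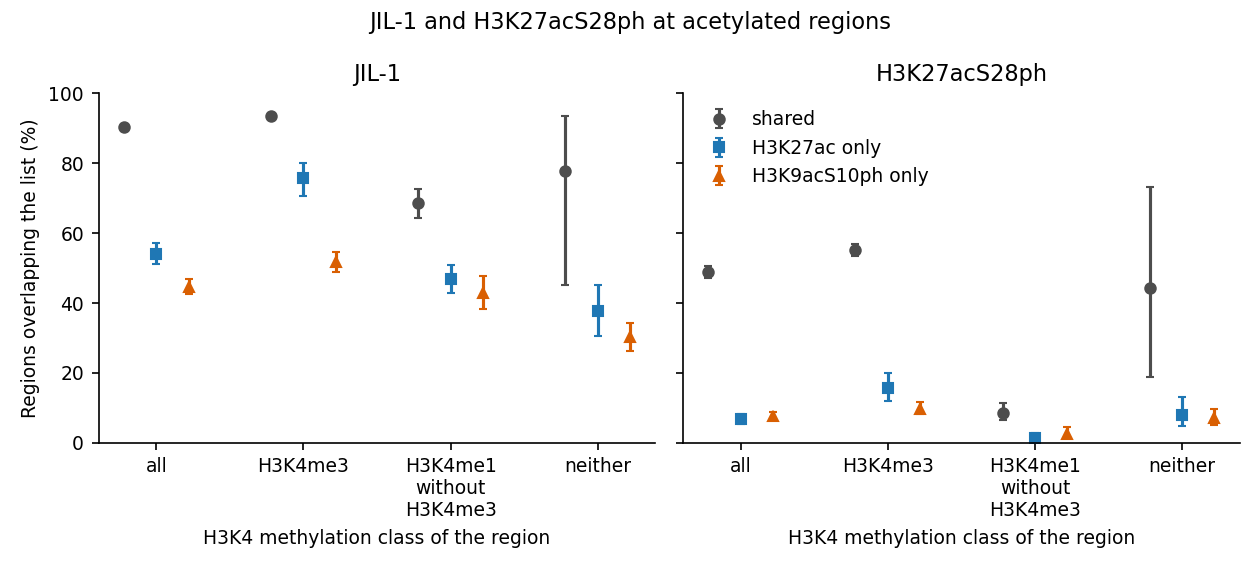
Share of regions (%, y axis, with 95% Wilson intervals) overlapping JIL-1 (left) or H3K27acS28ph (right), over all regions and within the H3K4 methylation classes (x axis), for shared, H3K27ac only and H3K9acS10ph only regions. Shared regions lie highest in each class, for JIL-1 at 93.7% at H3K4me3 and 68.6% at H3K4me1 without H3K4me3; the shared class at neither mark holds 9 regions.

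Shared regions are wider, and a wider region meets more JIL-1 peaks, so shares are also given within classes of width. Shared regions remained the wider within a class. At 1500 to under 2500 bp the median widths were 2034 bp for shared, 1804 bp for H3K27ac only and 1860 bp for H3K9acS10ph only regions. The part of width in the JIL-1 shares was not tested. Among regions of 1500 to under 2500 bp JIL-1 was found at 81.5% (78.6 to 84.2) of shared, 57.7% (52.4 to 62.8) of H3K27ac only and 433 of 962 (41.9 to 48.2%) H3K9acS10ph only regions. Among those of 2500 to under 5000 bp the shares were 90.4%, 64.5% and 56.6%. At like score the shared peaks also carried JIL-1 more often, except in the highest 25% of H3K9acS10ph scores. In the lowest 25% it was found at 71.2% against 45.2% of H3K27ac peaks (25.9 points, 20.7 to 31.0). For H3K9acS10ph peaks it was 62.1% against 38.2% (23.9 points, 18.8 to 28.7). Differences were smaller for H3K27ac at or above 3100 (15.4 points, 9.94 to 22.0). They were smaller too in the 25% below the highest for H3K9acS10ph (16.9 points, 10.2 to 24.6). In the highest 25%, JIL-1 was at 97.9% of 1710 shared and at all 8 unshared H3K9acS10ph peaks.

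JIL-1 peaks in the groups differed in score rank. Those in shared regions numbered 6282, or 51.1% of the 12295 JIL-1 arm peaks, and stood at a median percentile of 64.3 within the JIL-1 list. The 702 in H3K27ac only regions stood at 57.9, the 1007 in H3K9acS10ph only regions at 43.2 and the 4389 outside all regions at 29.9. More than 1 JIL-1 peak was found in 1705 of 3700 shared, 92 of 1077 H3K27ac only and 90 of 2068 H3K9acS10ph only regions. Median region widths were 3882.5, 1539 and 1683.5 bp in the same order, and the part of width was not tested. With the JIL-1 list reduced to its upper 50% by score, a setting chosen after seeing the data, JIL-1 was found at 76.7% of shared, 32.5% of H3K27ac only and 20.3% of H3K9acS10ph only regions.

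H3K27acS28ph, the other phosphoacetylated form, was found at 48.9% (47.3 to 50.5) of shared, 6.69% (5.34 to 8.34) of H3K27ac only and 7.64% (6.57 to 8.87) of H3K9acS10ph only regions. The unshared groups differed by -0.955 points, with an interval of -2.77 to 1.01. In bases, H3K27acS28ph covered 30.7% of those in both lists and 4.80% of all arm bases. It covered 8.09% of the bases of H3K27ac only and 4.74% of those of H3K9acS10ph only regions. By bases the H3K9acS10ph only regions were thus near the level of the arms. At H3K4me3 the shares were 55.1% of shared, 15.6% of H3K27ac only and 9.72% of H3K9acS10ph only regions. At H3K4me1 without H3K4me3 they were 8.57%, 1.52% and 2.61% in the same order of groups. In 1000 bp windows the shares over all regions were 38.9% of shared, 13.9% of H3K27ac only and 18.6% of H3K9acS10ph only regions.

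Along the chromosomes the make-up of the regions varied most for H3K27ac only. It made up 23.6% (21.2 to 26.2) of the 1102 regions on 2L, 16.6% of the 1263 on X, 14.6% of the 1450 on 3L, 13.5% of the 1432 on 2R and 10.8% (9.30 to 12.4) of the 1534 on 3R. In density this was 11.3 regions per Mb on 2L and 5.91 on 3R, while H3K9acS10ph only regions were at 11.6 per Mb on 2L and 17.2 on 3R. The density of H3K9acS10ph only regions was highest on 2R, at 22.4 per Mb, where H3K27ac only regions were at 9.19. On X, JIL-1 was found at 94.0% (92.0 to 95.6) of 671 shared, 60.0% (53.3 to 66.4) of 210 H3K27ac only and 44.8% (39.9 to 49.8) of 382 H3K9acS10ph only regions. On the autosomal arms 2L, 2R, 3L and 3R it was found at 89.5%, 52.7% and 44.7% in the same order of groups.

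Chromosome 4, the small chromosome known for interspersed heterochromatin, stood apart in kind. Its 64 H3K27ac peaks formed 28 shared and 36 H3K27ac only regions, so that 43.8% (32.3 to 55.9) of them were shared, against 79.8% (78.7 to 80.9) on the other arms. All 30 of its H3K9acS10ph peaks were shared, and H3K9acS10ph only made up 0 of its 64 regions, for which the Wilson interval reaches 5.66%. H3K27ac covered 12.6% of the 1.32 Mb counted for the chromosome and H3K9acS10ph 4.10%. Of its 36 H3K27ac only regions 8 overlapped H3K4me3, 13 overlapped H3K4me1 without H3K4me3 and 15 (41.7%, 27.1 to 57.8) overlapped neither, and 19 overlapped JIL-1. These numbers are small and come from 1 library of each form.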

How the data were processed

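Per the labels' protocols, Kc167 cells were fixed with 1% formaldehyde for 10 min, chromatin was sonicated to 200 to 1000 bp, and libraries were size selected for 200 to 300 bp. The submitters' processing notes name the aligner Bowtie, version 0.12.5. Each peak name includes MACS, a peak caller. Not given in the sources used here are the caller's settings, the build and whether an input library was used. For each sample the authors deposited 1 peak list, in which every peak has its ends and a score of undefined scale. The lowest scores of the lists were 50.0 to 50.4, as -10 times log10 of a p-value of 1e-05 would give, and scores piled up at 3100. They served only as midrank percentiles within a list. The other deposited values, start and end, are positions in bp. Read depth is unknown.

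Samples were grouped by antibody, 1 library each. Midpoints stand in for summits. A region counted as overlapping a list at 1 bp or more. The named regions are the 3 widest and 3 highest-scoring of each group, ties broken by width, the 3 pairs of smallest overlap, and the 3 of smallest gap among pairs of peaks that are both unshared. Members, lists and rules were chosen with earlier results of these data known. Genes are not named, because the gene table at hand describes release 6. Alternatives were 7 planned settings and 1 added. Python 3.11.15, numpy 2.4.6, pandas 2.3.3, scipy 1.17.1 and matplotlib 3.10.9 were used, and the overlap functions were tested on simulated data.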

Additional observations from a re-analysis of the deposited data

Results flagged for a closer look

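Peaks on scaffolds outside the arms, which the comparisons did not use, were looked at because they hold signal of both lists. There were 81 H3K27ac peaks there, 79 of them on assembled heterochromatin scaffolds, and 29 of the 81 (35.8%) overlapped H3K9acS10ph. There were 45 H3K9acS10ph peaks, 39 of them on the heterochromatin scaffolds, and 31 of the 45 (68.9%) overlapped H3K27ac.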

How the results depend on the processing

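Of 160 recomputed values of 23 results, 76 stayed within the 95% interval of the value reported and 84 did not. The order turned round for several pairs of values, among them the following. With each list reduced to its upper 50% of scores, it did so for JIL-1 in the unshared groups. Between the lists, unshared median widths and both shared and unshared median percentiles turned round there too. In H3K27ac only regions, H3K4me3 and H3K4me1 without H3K4me3 changed places in that setting and with 1000 bp around each midpoint. With H3K9acS10ph cut to the length of H3K27ac, the order turned round for the shares of H3K27ac and H3K9acS10ph peaks shared and for the percentiles of unshared peaks. In the upper 50% setting ties in score were broken by width, so the H3K27ac list lost the narrower of its peaks tied at 3100. The cause of the moves was not tested. Values are given for shared, H3K27ac only and H3K9acS10ph only regions in that order unless named. When an overlap had to reach 50% of the shorter peak, 77.1% of H3K27ac and 67.4% of H3K9acS10ph peaks were shared, JIL-1 was at 88.6%, 48.2% and 42.4%, the midpoint distance was 604.5 bp and the percentile of shared H3K9acS10ph peaks was 65.7. When a gap of up to 500 bp counted as shared, 82.3% and 72.2% were shared, the distance was 934 bp and that percentile 63.4. With each list reduced to its upper 50% of scores, 81.7% and 73.3% were shared, H3K4me3 was at 89.2%, 47.9% and 75.7%, H3K4me1 without H3K4me3 at 10.5% of shared and 44.1% of H3K27ac only, JIL-1 at 88.9%, 64.4% and 65.1%, and H3K27acS28ph at 47.0%, 13.2% and 13.4%. There the distance was 823 bp, median widths were 4176 (shared) and 3697 bp (only) for H3K27ac and 3616 and 2479 bp for H3K9acS10ph, and percentiles were 49.3 and 49.3 for H3K27ac, tied at the score of 3100, and 58.3 and 29.6 for H3K9acS10ph. With H3K9acS10ph cut to the length of the H3K27ac list, 74.0% and 82.2% were shared, H3K4me3 was at 89.4%, 33.8% and 65.8%, H3K4me1 without H3K4me3 at 10.5% of shared, JIL-1 at 91.9%, 57.1% and 53.3%, and H3K27acS28ph at 52.1% of shared and 10.5% of H3K9acS10ph only. Widths were then 2955 (shared) and 1596 bp (only) for H3K27ac and 2860 and 2071 bp for H3K9acS10ph, with percentiles of 19.7 for H3K27ac only, 58.5 for H3K9acS10ph shared and 16.2 for H3K9acS10ph only. With 1000 bp around each midpoint, 59.5% and 45.3% were shared, H3K4me3 was at 79.8%, 35.1% and 59.5%, H3K4me1 without H3K4me3 at 12.0%, 32.5% and 13.1%, JIL-1 at 81.3% of shared and 50.9% of H3K9acS10ph only, and H3K27acS28ph at 38.9%, 13.9% and 18.6%. The distance was 291 bp, bounded by the window, and percentiles were 32.9 for H3K27ac only, 65.9 for H3K9acS10ph shared and 34.3 for H3K9acS10ph only; widths have no value there. On X alone, 78.2% of H3K27ac peaks were shared, H3K4me3 was at 58.1% of H3K9acS10ph only, H3K4me1 without H3K4me3 at 63.3% and 16.8% of the 2 unshared groups, JIL-1 at 94.0% of shared and 60.0% of H3K27ac only, and H3K27acS28ph at 53.4% of shared. The distance there was 791 bp, widths were 2949 bp for H3K27ac shared and 2523 (shared) and 1619 bp (only) for H3K9acS10ph, and the percentile of shared H3K27ac peaks was 71.1 on X and 70.5 on the autosomal arms. With the JIL-1 list alone cut to its upper 50%, chosen after seeing the data, JIL-1 was at 76.7%, 32.5% and 20.3%. No paired analysis was possible because each antibody has 1 library and no result comes from a test. No replicate could be left out, and the unknown depth limits what an unshared peak shows.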
